A study of Homo sapiens with 32 samples.

Results

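The early transcriptional response of JUNB-edited mammary epithelial cells to transforming growth factor beta 1 (TGFβ1) was described in 8 RNA-seq libraries, 4 treated with TGFβ1 for 6 h and 4 treated with solvent, out of 32 libraries in all. All 32 libraries came from MCF10A, an immortalized, non-tumorigenic human mammary epithelial cell line grown with EGF, hydrocortisone, cholera toxin and insulin. The edited cells, called JUNB mut here, were 2 single-cell clones made with CRISPR/Cas9, clone 1 and clone 65. The editing left an extended deletion in JUNB and low amounts of a smaller JUNB polypeptide, so that these cells are not a complete null, although the labels call them knock-out. Each clone was treated with 5 ng/ml recombinant TGFβ1 for 6 h, or with solvent (0.1% BSA in PBS), in 2 replications. Solvent was applied for as long as the longest TGFβ1 treatment, although the labels place the solvent libraries at the start of the time course. The control was thus not a 6 h solvent treatment, and effects of solvent duration were not tested. A clone with its replication number is called a series, written 1-1, 1-2, 65-1 and 65-2, and each series gave 1 library of either treatment. The matching JUNB wild-type (WT) clones 27 and 2, with 8 libraries of solvent and 6 h, served as the comparison. The labels do not say whether the replications were separate cultures on separate days, so the p-values measure the spread between libraries only. That spread was pooled within groups over all 32 libraries, including the WT clones and longer treatments. JUNB mut cells are represented by 2 clones only.

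TGFβ1 binds the type II receptor TGFBR2, which recruits and activates the type I receptor TGFBR1. The active complex phosphorylates SMAD2 and SMAD3, which enter the nucleus with SMAD4 and switch genes on or off together with other transcription factors, among them activator protein 1 (AP-1). AP-1 is a dimer of JUN and FOS family proteins, and JUNB is one of its JUN subunits. In mammary epithelial cells, prolonged exposure to TGFβ1 causes epithelial-mesenchymal transition (EMT), and in the first hours it induces feedback inhibitors, matrix genes and transcription factors.

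Totals of the 8 libraries ranged from 41463465 to 52643961 counts, so that 3 counts correspond to between 0.0570 and 0.0724 counts per 1e6 counts of the library (CPM). The basal epithelial markers KRT5 (7461 CPM on average in solvent and 7720 CPM at 6 h), TP63 (124 and 122 CPM) and EGFR (279 and 305 CPM) were abundant. The other basal markers listed, KRT17 (2834 and 4202 CPM), ITGB4 (2271 and 3635 CPM) and KRT14 (480 and 726 CPM), averaged more at 6 h. Of these 6 basal markers, 1 passed the test, ITGB4. Their sum was 11940 to 14426 CPM in solvent libraries and 14449 to 18421 CPM at 6 h. Of the markers listed for hormone-sensing luminal cells, the oestrogen receptor gene ESR1 had 0.178 CPM in solvent, whereas KRT18 (198 CPM), KRT8 (178 CPM), GATA3 (38.2 CPM) and FOXA1 (7.28 CPM) were present, and none of these 5 passed the test at 6 h. The endothelial markers PECAM1 and CDH5 were not listed among the genes of the table, and VWF, with PTPRC and CD3E of blood cells, was below the count filter. CD68, a macrophage marker, had 6.57 and 6.60 CPM.

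Series 1-2 stood apart from the other 3 series in both treatments. On the first principal component of the 16 JUNB mut libraries, which ordered the other series from solvent to 72 h, solvent 1-2 had a score of -22.5, whereas the other solvent libraries lay between -44.3 and -40.0. The 6 h library of series 1-2 had a score of -32.6, below its own solvent library, and the other 6 h libraries lay between -13.7 and -11.7. The solvent library was thus shifted towards the treated libraries and the 6 h library towards the solvent libraries, and whether these 2 libraries were treated, timed or labelled as described was not tested. Across all genes, the 6 h changes of any 2 of the other series had Pearson correlations of 0.283 to 0.316, whereas those with series 1-2 had correlations of 0.0314 to 0.0776. These correlations are across genes, which are not independent replicates. Results are therefore given with all 4 series and, for part of them, also without the 2 libraries of series 1-2. Where the second value is not given, it can differ. In the 29 genes described below as largest changes, series 1-2 had the smallest change, so their fold changes are larger without it. The log2 fold change was 3.80 with all series and 4.66 without series 1-2 for LBH, and -1.92 and -2.39 for NRG2. Among WT cells, series 27-2 stood apart. On the first component of all 32 libraries its solvent library had a score of 21.9 against -25.9 to -18.6 for the other WT solvent libraries, and its 6 h library 46.1 against 2.26 to 15.5.

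**Figure D1:**
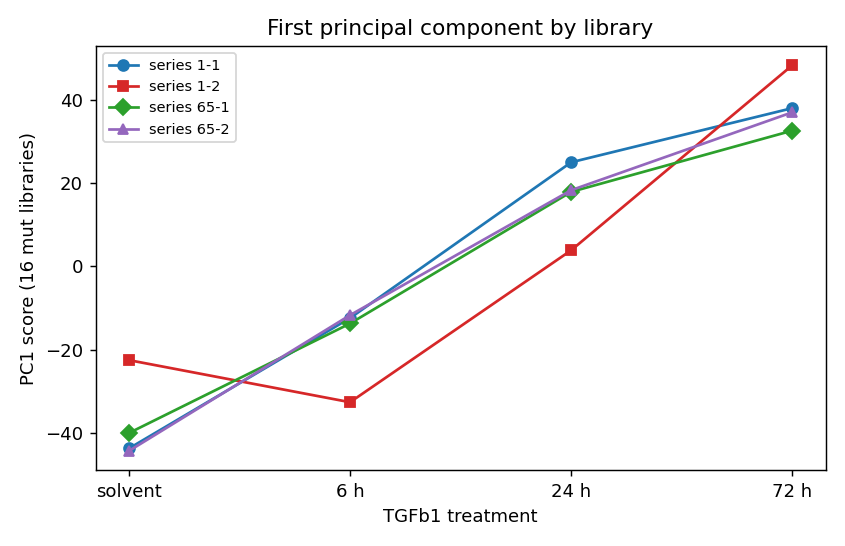
Scores on the first principal component of the log2 CPM values of the 16 JUNB mut libraries (y axis) by TGFβ1 treatment (x axis), with 1 line per series. Series 1-2 starts at -22.5 and drops to -32.6 at 6 h, while the 6 h libraries of the other 3 series lie between -13.7 and -11.7.

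To find the genes that responded to 6 h of TGFβ1, the 4 treated and 4 solvent libraries of JUNB mut cells were compared with limma-voom. Of 14865 genes tested, 1041 (7.00%) had an adjusted p-value under 0.05 and are called differentially expressed genes (DEGs). There were 306 DEGs that rose (2.06% of the genes tested) and 735 that fell (4.94%). The rises were larger, with a median log2 fold change of 0.54 against -0.32 for the falls, and 65 of the 90 DEGs with an absolute log2 fold change of at least 1 were rises. The split by direction depended on the scaling. With trimmed mean of M-values (TMM) factors there were 722 DEGs, of which 416 rose and 306 fell, so that rises made up 57.6% of DEGs in place of 29.4%, and 610 genes passed under both scalings with 1 direction. Over all genes tested the median was -0.06 when scaled by library size and -0.00462 after TMM.

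Without series 1-2 the number of DEGs was 1074 (7.23%), with 361 rises and 713 falls. Of these, 854 were DEGs with all libraries too, each in the same direction, while 187 were DEGs only with all libraries and 220 only without the series. With the series as a replicate block there were 2453 DEGs (16.5%), which included all 1041. Single libraries moved the number of DEGs by over 1.5 times. It was 1873 without 6 h 1-2, 444 without solvent 1-2, 480 without solvent 1-1, 632 without solvent 65-2, 272 without 6 h 65-2 and 241 without 6 h 65-1. The fit on the 8 libraries alone gave 437 DEGs.

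Of the 306 DEGs that rose, 278 were higher at 6 h than in solvent in all 4 series, and of the 735 that fell, 710 were lower in all 4. The 4 libraries of one treatment did not overlap those of the other in 217 and 423 of them. Over all genes tested, 552 (3.71%) were higher and 1229 (8.27%) were lower without overlap. The median change of the rising DEGs was 0.68 in series 1-1, 0.59 in series 65-1, 0.63 in series 65-2 and 0.24 in series 1-2 on the log2 scale. For the falling DEGs it was -0.29, -0.35, -0.41 and -0.21 in the same order. The DEGs were chosen on these libraries, so these medians describe them and are no test.

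The edited gene itself rose. JUNB (ENSG00000171223, GRCh38 chromosome 19, 12791486 to 12793315, plus strand) had 69.2, 77.5, 128 and 172 CPM in the solvent libraries of series 1-1, 1-2, 65-1 and 65-2, and 202, 129, 436 and 494 CPM after 6 h. Every series rose, and clone 65 had more JUNB RNA than clone 1 in both treatments. The log2 fold change was 1.39 ± 0.33 (SE) at an adjusted p of 0.0106 by limma-voom, and 1.61 with an adjusted p-value of 0.00279 without series 1-2. Pairing the libraries of each series in a replicate block gave 1.4 ± 0.16 (SE, limma-voom adjusted p-value 3.14e-06). The two-sided exact permutation test of 4 against 4 libraries gave p = 0.0571, where the smallest possible value is 0.0286. That test ignored the pairing, as did the fits that each left out 1 library. The limma-voom adjusted p-value was 0.0528 without solvent 1-1, 0.0748 without 6 h 65-1 and 0.0787 without 6 h 65-2, with log2 fold changes of 1.20, 1.17 and 1.11. WT cells had 97.6 CPM in solvent and 233 CPM at 6 h on average, so that the amount of JUNB RNA does not check the genotype labels. JUNB overlaps HOOK2 on the opposite strand, and the library kit keeps no strand.

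Of the largest changes, 14 rises and 15 falls, in genes with at least 5 CPM in the higher group and the same direction in all 4 series, were examined next. All 29 were DEGs without series 1-2 as well. LBH, a transcription cofactor of limb and heart development that also acts in mammary epithelium (chromosome 2, 30231534 to 30323730), showed the largest rise. It was near absent in solvent at 0.466, 2.92, 0.505 and 0.442 CPM and reached 14.0, 5.96, 12.0 and 10.8 CPM, a log2 fold change of 3.80 ± 0.56 (SE, adjusted p by limma-voom 0.000104). RDH16, a retinol dehydrogenase, rose from 1.95, 2.56, 1.43 and 1.73 CPM to 18.8, 8.61, 15.8 and 15.9 CPM (log2 fold change 2.94 ± 0.44). ALOX5AP, which presents arachidonic acid to 5-lipoxygenase, rose from 0.931, 2.96, 0.842 and 0.583 CPM to 9.79, 3.06, 9.36 and 7.56 CPM, so that series 1-2 hardly moved. In all 3 genes series 1-2 had the highest solvent level and the lowest level at 6 h.

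SLC29A1, the nucleoside transporter ENT1 (chromosome 6, 44219553 to 44234142), had solvent levels that were alike in all series, at 83.7, 78.0, 95.0 and 73.0 CPM. It rose to 322, 148, 363 and 311 CPM, a log2 fold change of 1.73 ± 0.18 (SE, adjusted p by limma-voom 4.25e-06). MRAP2, an accessory protein of melanocortin receptors, and DCLK1, a doublecortin-like kinase, rose by 1.94 and 1.66 on the log2 scale. FBLN5, an elastic fibre protein, rose by 1.84, from 8.70 to 18.7 CPM in solvent to between 20.6 and 87.4 CPM at 6 h. Its call was lost in 5 of the 8 fits that each left out 1 library, with a highest limma-voom adjusted p-value of 0.156. The other rises of the 14 were SHISAL1, SYN1, STK32A and the antisense RNA HOXC13-AS, with log2 fold changes between 1.55 and 1.73, and PMEPA1, ITGB6 and COL1A1, which are described with their groups. Reads of HOXC13-AS cannot be told apart from those of HOXC13, nor those of SYN1 from ARAF and TIMP1, where these genes overlap.

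**Figure D2:**
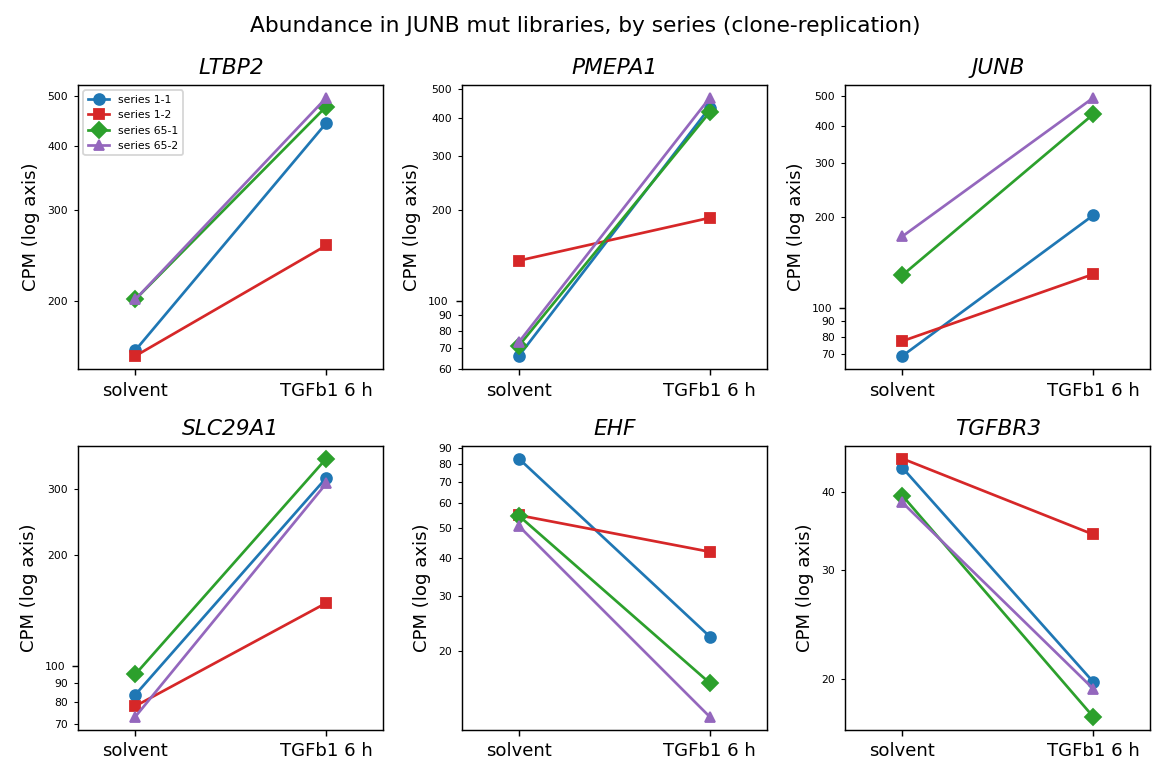
CPM (y axes, log scale) in the solvent and 6 h libraries (x axes) of each of the 4 JUNB mut series for 6 genes, with 1 line per series and no averaging. LTBP2, PMEPA1, JUNB and SLC29A1 rise and EHF and TGFBR3 fall in every series, and series 1-2 has the flattest line in each of the 6 panels.

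Among the largest falls, NRG2, a ligand of the ERBB receptors (chromosome 5, 139846779 to 140043299), had 4.66, 5.93, 5.07 and 6.78 CPM in solvent and 1.17, 4.82, 0.993 and 0.969 CPM at 6 h. The log2 fold change was -1.92 ± 0.31 (SE, adjusted p by limma-voom 0.000364), and the 6 h library of series 1-2 overlapped the solvent range. EHF, an ETS transcription factor of epithelia (chromosome 11, 34621093 to 34663288), had 83.4, 54.8, 54.6 and 50.6 CPM in solvent and 22.3, 41.8, 15.8 and 12.3 CPM at 6 h. Its log2 fold change was -1.57 ± 0.43 with an adjusted p-value of 0.0269, and the groups did not overlap. The EHF call was lost in 4 of the 8 fits that each left out 1 library, with a highest adjusted p-value of 0.138.

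TP73, a member of the p53 family that overlaps 2 genes on the opposite strand, fell by 1.33 on the log2 scale. NR2F1, an orphan nuclear receptor, fell by 1.13, SP6, a Sp/KLF-type transcription factor of epithelia, by 1.02, and GAS1, a membrane protein named for its expression in growth arrest, by 0.97. RGS16, a regulator of G protein signalling, fell from between 4.17 and 7.48 CPM to between 1.54 and 4.32 CPM. ADGRF1, RERG, SYBU, SLCO4A1, OAS1, KCNK2, TGFBR3 and MYBPC1 made up the rest of the 15, with log2 fold changes between -1.42 and -0.95. At 6 h, series 1-2 had the highest level of the 4 series in all 15 falls and the lowest in all 14 rises, and its change was the smallest in all 29 genes. The calls of ADGRF1, TP73, SLCO4A1, OAS1, KCNK2 and MYBPC1 were also lost in at least 1 fit that left out a library, with highest adjusted p-values of 0.079 to 0.133.

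**Figure D3:**
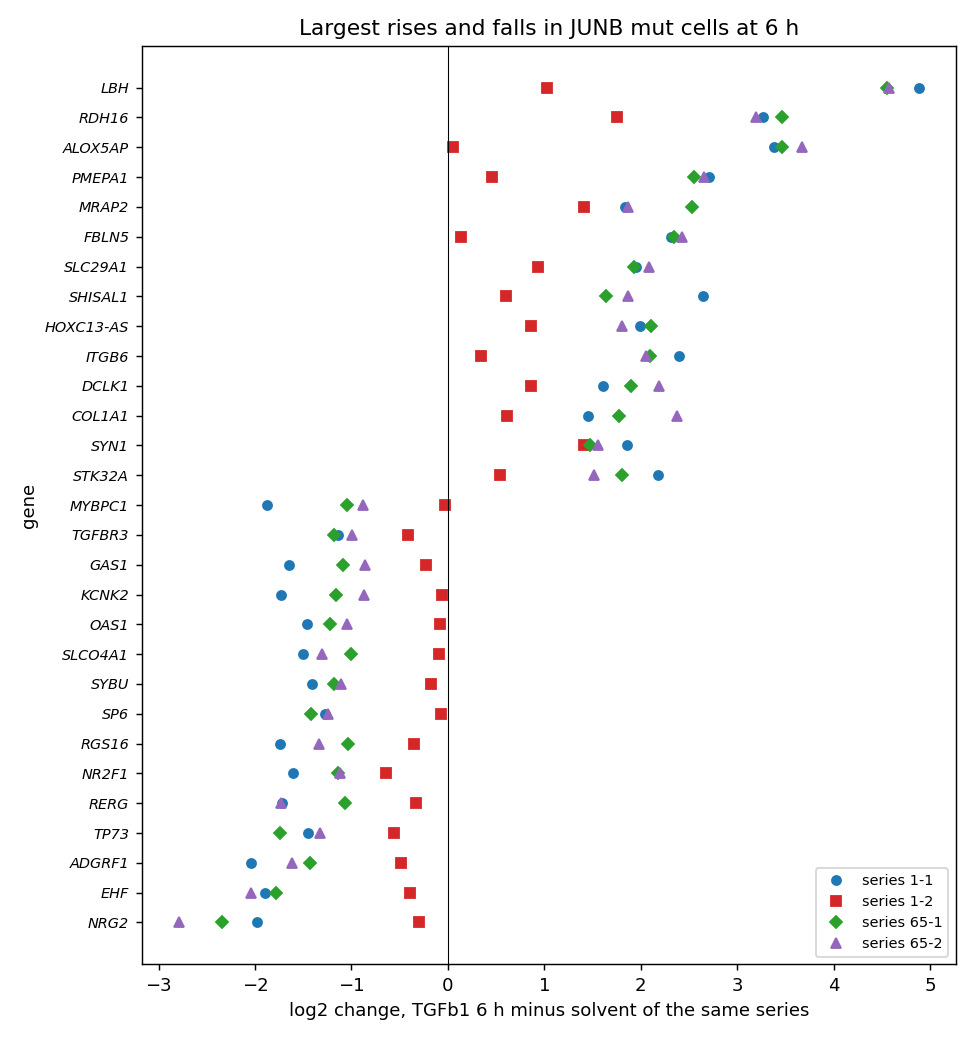
Log2 change from solvent to 6 h within each JUNB mut series (x axis) for 14 of the largest rises and the 15 largest falls (y axis, ordered by fold change). Series 1-2 lies closest to 0 in every one of the 29 genes, for example at 0.05 for ALOX5AP and -0.03 for MYBPC1.

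A further 220 genes were called when series 1-2 was left out but not in the fit of all libraries. Of these, the 5 largest rises and 5 largest falls were examined. They were taken among genes with at least 5 CPM in the higher group and the same direction in the other 3 series. The rises were SEMA7A (log2 fold change without the series 2.30, limma-voom adjusted p-value 0.026), SLITRK6 (1.41, 0.0408), CCDC80 (1.37, 0.0167), AMIGO2 (1.33, 0.00419) and THBS1 (1.22, 0.0351). SEMA7A, a membrane-anchored semaphorin, had 1.46, 8.51, 1.73 and 1.45 CPM in solvent and 7.80, 3.74, 6.76 and 8.40 CPM at 6 h. It was thus lower at 6 h in series 1-2 and higher in the other 3. The falls were TJP3, PPP1R9A, ALOX15B, METTL7B and CD14, with log2 fold changes between -1.01 and -0.75 without the series. With all libraries the adjusted p-values of these 10 genes were between 0.0546 and 0.114. With all 4 series kept and the series as a replicate block, all 10 passed, with limma-voom adjusted p-values of 0.00175 (THBS1) to 0.0491 (SEMA7A). THBS1, PPP1R9A and METTL7B moved the same way in all 4 series.

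To show sequence at genes that rose together, promoter windows of 300 bases (250 before and 50 after the start) were taken from RefSeq on GRCh38.p14, using the first start listed for a gene. The windows were searched on both strands for the AP-1 motif TGANTCA. Of 41 named DEGs that rose, 30 had a window, and the motif was found in 5 of those searched. They are printed 5′ to 3′ in the direction of the gene, with the motif in capitals. The windows are chr6:84033522-84033821 (plus strand, MRAP2), chr13:36131890-36132189 (minus strand, DCLK1), chr10:71319009-71319308 (plus strand, SLC29A3), chr5:53480379-53480678 (plus strand, FST) and chr12:54419217-54419516 (minus strand, ITGA5).
MRAP2: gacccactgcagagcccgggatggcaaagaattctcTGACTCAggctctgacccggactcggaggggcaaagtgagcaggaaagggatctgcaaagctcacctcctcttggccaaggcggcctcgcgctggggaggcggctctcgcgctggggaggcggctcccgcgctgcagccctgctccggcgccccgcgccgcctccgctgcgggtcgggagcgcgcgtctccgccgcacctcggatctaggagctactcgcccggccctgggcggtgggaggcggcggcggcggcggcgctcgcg
DCLK1: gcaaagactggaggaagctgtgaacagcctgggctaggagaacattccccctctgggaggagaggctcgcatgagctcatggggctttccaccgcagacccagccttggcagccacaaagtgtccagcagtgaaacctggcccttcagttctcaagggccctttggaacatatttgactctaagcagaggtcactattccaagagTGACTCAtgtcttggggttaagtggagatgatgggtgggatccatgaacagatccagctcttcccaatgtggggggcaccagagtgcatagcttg
SLC29A3: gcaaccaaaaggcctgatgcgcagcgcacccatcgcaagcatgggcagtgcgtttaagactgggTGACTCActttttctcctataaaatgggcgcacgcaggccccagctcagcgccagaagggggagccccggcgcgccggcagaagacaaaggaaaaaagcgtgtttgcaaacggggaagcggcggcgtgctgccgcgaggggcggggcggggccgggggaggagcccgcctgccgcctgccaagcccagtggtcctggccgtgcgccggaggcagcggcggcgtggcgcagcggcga
FST: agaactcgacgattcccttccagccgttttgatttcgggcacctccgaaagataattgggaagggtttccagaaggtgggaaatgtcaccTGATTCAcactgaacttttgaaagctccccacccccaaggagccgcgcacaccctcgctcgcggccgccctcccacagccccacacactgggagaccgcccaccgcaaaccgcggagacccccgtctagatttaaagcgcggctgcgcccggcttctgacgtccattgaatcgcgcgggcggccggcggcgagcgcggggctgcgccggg
ITGA5: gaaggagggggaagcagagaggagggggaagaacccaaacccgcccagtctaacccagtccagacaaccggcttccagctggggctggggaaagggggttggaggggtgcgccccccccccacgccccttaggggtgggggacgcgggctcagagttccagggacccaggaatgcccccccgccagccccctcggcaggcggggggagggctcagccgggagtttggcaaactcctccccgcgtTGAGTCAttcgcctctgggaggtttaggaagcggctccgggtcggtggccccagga

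In these windows the motif began 214 bases before the start in MRAP2, 45 in DCLK1, 186 in SLC29A3, 160 in FST and 6 in ITGA5. MRAP2, DCLK1 and SLC29A3 carried the form TGACTCA, ITGA5 the form TGAGTCA and FST the form TGATTCA. Of 28 named DEGs that fell, 22 had a window. Outside chromosome 8, the motif was found in that of SMAD1, as TGACTCA 45 bases before the start, which is not printed. The named DEGs that rose were likewise searched outside that chromosome only, so a motif in a window there would not be counted. The motif was present in 8.26% of the 242 rising DEGs with a window (20 genes), in 2.82% of the 603 falling DEGs (17 genes) and in 5.08% of the 11690 genes tested that had a window. In all 27305 promoters of the table the share was 7.76%. The GC-rich SMAD motif GGCGCC was present in 33.5% of rising DEGs, 30.5% of falling DEGs and 29.8% of the genes tested. These shares describe letters in a window and show no binding.

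Members of the TGFβ pathway were examined by role. Of 12 ligands, latency proteins and follistatins, 4 rose and 0 fell, beside 2.06% and 4.94% of all genes, and the list median was 0.244 against -0.06 for all genes. The counts and medians of the lists up to the integrins are to be read against these same shares and this median. LTBP2, which belongs to the latent TGFβ binding protein family, had 160, 156, 201 and 201 CPM in solvent and 443, 256, 477 and 496 CPM at 6 h. The treated libraries all lay above the solvent libraries (log2 fold change 1.18 ± 0.18, SE, limma-voom adjusted p-value 0.000116). FSTL3, which binds and blocks activin, rose from 68.9, 90.0, 82.9 and 67.7 CPM to 195, 109, 225 and 224 CPM (1.24 ± 0.16, adjusted p-value 2.04e-05). Its relative FST, follistatin, rose from between 2.13 and 2.53 CPM to between 4.17 and 6.03 CPM (1.25 ± 0.32). TGFB1 itself rose by a smaller amount, 0.37 ± 0.10, with solvent libraries between 85.6 and 94.4 CPM and 6 h libraries between 106 and 125 CPM. The calls of FST and TGFB1 were lost in 4 and 5 of the 8 fits that each left out 1 library, with highest adjusted p-values of 0.0694 and 0.104.

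Of 17 receptors and SMAD transducers, 3 fell and 0 rose, with a list median of -0.111. TGFBR3, the co-receptor betaglycan (chromosome 1, 91680343 to 91906335), had 43.8, 45.3, 39.5 and 38.5 CPM in solvent and 19.8, 34.2, 17.4 and 19.3 CPM at 6 h. It fell in every series without overlap (log2 fold change -0.95 ± 0.15, SE, limma-voom adjusted p-value 0.000232). TGFBR2 fell from between 460 and 522 CPM to between 346 and 463 CPM (-0.34 ± 0.10, adjusted p-value 0.028). That call was lost with TMM factors, at an adjusted p-value of 0.0893, and in 6 of the 8 fits that each left out 1 library. SMAD1, a transducer of bone morphogenetic protein (BMP) signals, fell by 0.31 ± 0.06. TGFBR1, SMAD2, SMAD3 and SMAD4 had log2 fold changes between -0.11 and 0.19 and did not pass the test. BMPR2, a type II receptor of BMPs, passed without series 1-2 (0.44, adjusted p-value 0.0267) but not with all libraries (0.32, 0.0689).

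Among 12 negative feedback genes, 4 rose and 2 fell. PMEPA1, a membrane protein that sequesters receptor-regulated SMADs (chromosome 20, 57648392 to 57711536), rose from 66.1, 136, 71.4 and 73.4 CPM to 433, 188, 418 and 466 CPM. Series 1-2 again had the highest solvent and the lowest treated level, and the groups did not overlap (log2 fold change 2.10 ± 0.24, SE, limma-voom adjusted p-value 9.3e-06, and 2.64 without series 1-2). SKIL, which encodes the SMAD co-repressor SnoN, rose from 42.3, 56.8, 36.0 and 43.4 CPM to 147, 69.1, 99.0 and 117 CPM (1.25 ± 0.18). Its relative SKI rose by 0.51 ± 0.06, and SMAD7, which blocks the activated type I receptor, by 0.55 ± 0.10. The ubiquitin ligase NEDD4L and the co-repressor TGIF2 fell by 0.40 and 0.48, of which the NEDD4L call was lost with TMM factors (adjusted p-value 0.0792) and held in 1 of the 8 fits that each left out 1 library. LDLRAD4, a relative of PMEPA1, averaged 0.214 CPM without and 1.97 CPM after treatment and did not pass, with an adjusted p-value of 0.114, but passed with the replicate block (0.00484).

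In the BMP branch 1 of 7 genes tested passed. ID3, an inhibitor of basic helix-loop-helix factors, had 27.8, 27.7, 28.9 and 29.9 CPM in solvent and 48.2, 33.6, 49.2 and 49.7 CPM at 6 h. Solvent levels were nearly equal, and the library 6 h 1-2 lay between both groups (log2 fold change 0.65 ± 0.15, SE, limma-voom adjusted p-value 0.00843). The ID3 call was lost without 6 h 65-1 (adjusted p-value 0.0501). ID1 averaged 113 and 150 CPM with an adjusted p-value of 0.0621, and 0.00227 with the replicate block.

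Of 19 AP-1 family genes tested, 2 rose and 0 fell, namely JUNB and JUN. JUN (chromosome 1, 58776845 to 58784048) had 77.8, 71.9, 72.9 and 92.0 CPM in solvent and 208, 114, 205 and 219 CPM at 6 h. All treated libraries lay above all solvent libraries, and the log2 fold change was 1.21 ± 0.16 (SE, adjusted p by limma-voom 2.59e-05). JUND, FOSL1 and FOSL2, the other abundant members besides ATF4, had log2 fold changes of 0.01, 0.07 and -0.03. FOS averaged 35.3 and 47.0 CPM, with an adjusted p-value of 0.0839, and 0.0099 with the replicate block. The median of the family was 0.0084.

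Among 12 EMT transcription factors tested, SNAI1, SNAI2 and FOXC2 rose. SNAI1, which encodes SNAIL1, was low at 0.508, 0.674, 0.758 and 0.563 CPM in solvent and reached 2.94, 1.18, 3.21 and 3.27 CPM (log2 fold change 2.02 ± 0.38, SE, limma-voom adjusted p-value 0.00229). SNAI2 rose from 76.6, 102, 72.7 and 98.4 CPM to 164, 109, 150 and 160 CPM (0.74 ± 0.15, adjusted p-value 0.00409). ZEB1 averaged 7.16 and 6.28 CPM and ZEB2 2.04 and 2.44 CPM, with adjusted p-values of 0.731 and 0.747. Without series 1-2, HMGA2 (0.67, adjusted p-value 0.00707) and SOX4 (0.58, 0.016) passed in addition. The FOXC2 rise of 0.52 was lost without 6 h 65-1 or solvent 1-2, with a highest adjusted p-value of 0.147, and FOXC2 overlaps an antisense gene.

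Matrix genes formed the list with the most rises by number, while the share was larger for integrins (6 of 13). Of 25 matrix genes tested, 9 rose and 0 fell, beside 2.06% and 4.94% of all genes. The median was 0.483 against -0.06 for all genes, and without series 1-2 there were 12 rises with a median of 0.852. COL1A1, a chain of type I collagen, rose from 5.27, 5.30, 5.01 and 3.16 CPM to 14.4, 8.10, 17.1 and 16.4 CPM (log2 fold change 1.59 ± 0.32, SE, limma-voom adjusted p-value 0.00394). TNC, the matricellular protein tenascin C, rose by 1.5 ± 0.34, COL4A1, a basement membrane collagen chain, by 1.18 ± 0.23, and BGN, biglycan, by 1.08 ± 0.25. The TNC call was lost without 6 h 65-2 (adjusted p-value 0.0514). Each of TNC, COL4A1 and BGN overlaps a gene on the opposite strand. FN1, fibronectin, named after its values were seen, had 249, 1413, 373 and 272 CPM in solvent and 759, 370, 656 and 633 CPM at 6 h. Solvent 1-2 was thus the highest of the 8 libraries, FN1 did not pass with all libraries (adjusted p-value 0.625), and without series 1-2 its change was 1.22 with an adjusted p-value of 0.0724. Summed over the 4 fibroblast markers that were tested, which include COL1A1, solvent libraries had 15.2 to 24.9 CPM and 6 h libraries 25.1 to 35.8 CPM, and their part in the matrix result was not tested. The defining markers LUM and COL3A1 were not listed or below the filter, PDGFRA averaged under 0.3 CPM, and DCN, at 15.1 and 16.6 CPM, did not pass.

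Among 19 genes of the plasminogen system and metalloproteases, 2 rose and 0 fell. PLAU, the urokinase gene and 1 of them, had 83.2, 177, 85.4 and 88.1 CPM in solvent and 219, 128, 192 and 185 CPM at 6 h, so that it was lower at 6 h in series 1-2 and higher in the other 3. Its log2 fold change was 0.80 ± 0.24 (SE, adjusted p by limma-voom 0.0443), and 1.21 without series 1-2. The PLAU call held in 2 of the 8 fits that each left out 1 library, with a highest adjusted p-value of 0.147, and PLAU overlaps a gene on the opposite strand. Without series 1-2, 4 members of the list rose.

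Integrins, the matrix receptors, rose in 6 of 13 cases and fell in 0, with a median of 0.388. ITGB6, a subunit of the integrin that activates latent TGFβ (chromosome 2, 160099667 to 160200313), had 85.9, 158, 89.7 and 95.3 CPM in solvent and 454, 200, 384 and 395 CPM at 6 h. The log2 fold change was 1.72 ± 0.22 (SE, adjusted p by limma-voom 1.89e-05), without overlap of the groups. ITGB4 of hemidesmosomes rose from between 1907 and 2709 CPM to between 2587 and 4405 CPM (0.66 ± 0.13). ITGA5, a subunit of the fibronectin receptor, rose by 0.60 ± 0.12, and ITGA2 and ITGB5 passed too. ITGB3 rose from between 0.169 and 0.898 CPM to between 1.06 and 2.06 CPM, and its call held in 1 of the 8 fits that each left out 1 library. ITGB1 and ITGA3 had log2 fold changes of -0.05 and 0.15 and did not pass.

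**Figure D4:**
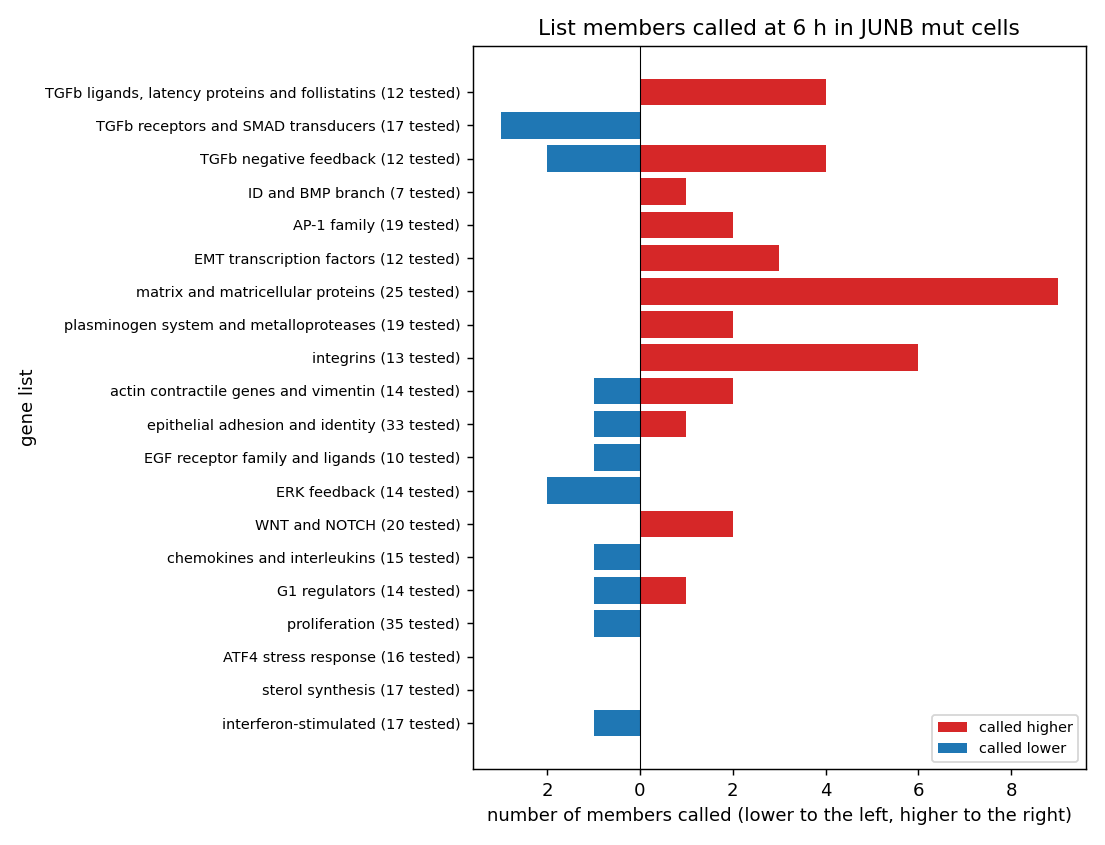
Number of list members called at 6 h in JUNB mut cells (x axis, rises to the right in red and falls to the left in blue) in each of 20 gene lists (y axis, with the number tested). Matrix genes with 9 of 25 and integrins with 6 of 13 have the most rises by number, and the ATF4 and sterol lists have no call.

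The remaining lists are read against the 7.00% of all genes that were called. Of 33 epithelial adhesion and identity genes, KRT6A rose by 0.52 and the desmosomal PKP2 fell by 0.28, and the list median of -0.077 was close to that of all genes. Of 14 actin contractile genes with vimentin, ACTN1 and FLNA, which crosslink actin, rose by 0.41 and 0.31, while CNN3 fell by 0.33. Among 14 ERK feedback genes, SPRY2 fell from between 53.7 and 64.5 CPM to between 31.5 and 44.5 CPM (log2 fold change -0.72 ± 0.10, SE, limma-voom adjusted p-value 3.62e-05), and the phosphatase gene DUSP5 fell by 0.62. EPGN, epigen, was the 1 that passed of 10 genes of the EGF receptor family and its ligands, and it fell from between 469 and 489 CPM to between 276 and 416 CPM (-0.59 ± 0.17).

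Of 20 WNT and NOTCH genes, WNT9A and LFNG, a modifier of NOTCH, rose by 1.29 and 1.11. CXCL2 was the 1 of 15 chemokines and interleukins that passed, and it fell by 0.68, and OAS1 was the 1 of 17 interferon-stimulated genes. Of 14 G1 regulators, the cell cycle phosphatase CDC25A fell by 0.52 and GADD45B rose by 0.41. Of 35 proliferation genes 1 fell, RRM2, by 0.52, and 0 fell with TMM factors. The calls of KRT6A, PKP2, FLNA, CNN3, EPGN, DUSP5, CXCL2, CDC25A, GADD45B and RRM2 held in 1 to 5 of the 8 fits that each left out 1 library, with highest adjusted p-values of 0.0577 to 0.203. PKP2, CDC25A, RRM2 and also DUSP5 lost the call with TMM factors, at limma-voom adjusted p-values of 0.0893, 0.057, 0.0901 and 0.0513, and FLNA and RRM2 lost it without series 1-2, at 0.0537 and 0.0533. Of 16 ATF4 stress genes and 17 sterol synthesis genes, 0 passed with limma-voom, edgeR or DESeq2, and 0 and 1 had an unadjusted p-value under 0.05.

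With the series as a replicate block, 4.92% of all genes rose and 11.6% fell, and several lists held over 1.5 times as many calls. The epithelial list then had 6 rises and 6 falls. Its rises included the keratins KRT14 and KRT17 (limma-voom adjusted p-values with the block 0.00275 and 0.00193) and the junction gene JUP (0.00838), and its falls the tight junction gene OCLN (0.0127) and EPCAM (0.0369). The G1 regulators had 3 rises and 7 falls, the falls including MYC (0.0177) and CCND1 (0.0101), and the proliferation list had 0 rises and 6 falls, among them PCNA (0.0161) and CDK1 (0.012). Chemokines and interleukins had 2 rises and 3 falls, interferon-stimulated genes 0 and 4, ERK feedback genes 0 and 4, and the actin list 5 and 1. In the lists described before, the block gave 1 rise and 5 falls for receptors and SMAD transducers, 3 rises for the BMP branch, 4 rises and 1 fall for the AP-1 family, 5 rises for EMT factors and 4 for the plasminogen list. The genes named in this paragraph were chosen after their values were seen.

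The response of JUNB mut cells was then set beside that of WT cells, which share no library with it. The calls of both came from 1 fit with a pooled spread for each gene. A gene with a small spread is called more easily in both, so the overlap of calls is not one of independent tests. Of the 306 DEGs that rose in mut cells, 241 were DEGs in the same direction in WT cells and 303 had the same sign there, whereas 5.13% of all genes tested rose in WT cells as DEGs and 35.3% had a positive change. Of the 735 that fell, 515 were also WT DEGs and 728 had the same sign, beside 11.9% and 64.7% of all genes, and 1 was a WT DEG in the opposite direction. In the other direction, genes were chosen in WT cells as DEGs with an absolute log2 fold change of at least 1. These were 208 rises and 103 falls. In mut cells, 80 of the 208 (38.5%) and 37 of the 103 (35.9%) were DEGs in the same direction. The median log2 fold change of the 208 was 1.56 in WT cells, where the choice itself raises it, and 0.85 in mut cells, or 1.10 without series 1-2. By series the median was 1.15 in 1-1, 1.05 in 65-1, 1.06 in 65-2 and 0.10 in 1-2. For the 103 falls the median was -1.38 in WT and -0.73 in mut cells, and -0.84 without series 1-2.

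A call in one genotype and not in the other shows no difference, so the difference between the changes (mut minus WT, the interaction) was tested. It called 11 genes (0.0740% of 14865), of which 1 was higher and 10 were lower in mut cells, while 764 genes had an unadjusted p-value under 0.05. With no difference in any gene, a share of about 0.05 of the genes tested is expected there, and 764 is close to it. SPDL1, a spindle protein, was higher at 6 h in every WT series and fell in mut cells (log2 fold change -0.35, limma-voom adjusted p 0.0165). The other 9 lower genes had mut changes between -0.22 and 0.42. None of these passed limma-voom with all libraries, scaling by library size and no block. IGF1R and SOX4, however, rose in mut cells without series 1-2 (log2 fold changes 0.30 and 0.58, limma-voom adjusted p-values 0.00735 and 0.016), with TMM factors (0.0338 and 0.0379) and with the replicate block (0.0241 and 0.0126). SGK1 fell in mut cells with the block (0.0378). FERMT1, which encodes the integrin activator kindlin-1 (chromosome 20, 6074845 to 6123214), had 95.3, 121, 97.7 and 99.3 CPM in mut solvent libraries and 98.1, 98.8, 86.9 and 91.3 CPM at 6 h. These ranges overlapped, whereas WT cells averaged 142 CPM in solvent and 282 CPM at 6 h. The interaction was -1.09 at an adjusted p of 0.00485 by limma-voom, and FERMT1 was the 1 gene called when series 1-2 was left out.

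IVNS1ABP, which encodes an actin-binding kelch protein, averaged 186 and 370 CPM in WT cells, and in mut cells the solvent libraries of 167 to 208 CPM overlapped the 6 h libraries of 167 to 217 CPM (interaction -0.97, limma-voom adjusted p-value 0.0261). SOX4, a transcription factor active in EMT, averaged 48.5 and 124 CPM in WT cells and had 35.8, 49.2, 36.7 and 35.7 CPM in mut solvent and 56.5, 46.6, 54.1 and 50.9 CPM in mut 6 h libraries (-0.91, adjusted p-value 0.0425). The interactions of the phosphatase gene INPP4B, the kinase gene SGK1, the growth factor receptor gene IGF1R, SPDL1, BPGM, FAM83A and MOB3B lay between -0.96 and -0.52. SLC29A3, a nucleoside transporter, went the other way, with mut libraries of 8.91 to 9.34 CPM in solvent and 11.2 to 12.5 CPM at 6 h, and a WT average of 10.4 and 9.05 CPM (0.57, adjusted p-value 0.0402). SLC29A3 was not called with TMM factors, under which 9 of the 11 were.

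The set of interaction calls rested on single libraries. There was 1 call without series 1-2 and, in fits chosen after seeing the data, 8 without WT series 27-2, which stood apart, of which 7 were among the 11, and 1 without both. All 11 interactions kept their sign without series 1-2. Leaving out 1 library at a time gave 1 call without solvent 1-2, 1 without 6 h 65-2, 2 without 6 h 65-1, 3 without 6 h 1-2, 6 without solvent 1-1, 6 without solvent 65-1 and 7 without 6 h 1-1. The replicate block gave 46 calls, which included all 11.

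**Figure D5:**
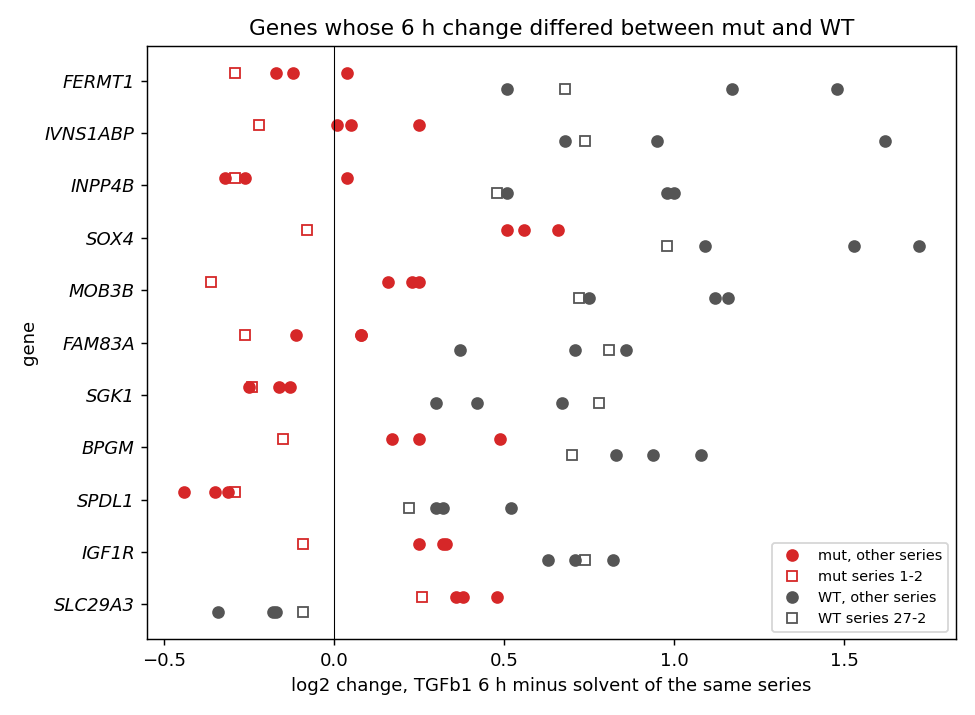
Log2 change from solvent to 6 h within each series (x axis) for the 11 genes with an interaction call (y axis), in mut (red) and WT (grey) series, with open squares for mut series 1-2 and WT series 27-2. SLC29A3 is the one gene with mut series above WT series, and SPDL1 has 4 mut series below 0 and 4 WT series above 0.

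Finally, the clones were compared, since each genotype rests on 2 of them. The 6 h change of clone 65 minus that of clone 1 gave 0 calls with limma-voom, and 0 with edgeR, DESeq2, TMM factors or the replicate block. At an unadjusted p-value under 0.05 there were 187 genes with limma-voom, 205 with edgeR and 216 with DESeq2. These numbers lie below the share of about 0.05 of the genes tested that is expected with no difference in any gene. Clone 1 includes series 1-2, and without it there were 0 calls and 167 genes at an unadjusted p-value under 0.05. A clone has 2 libraries of either treatment, so that a lack of calls does not show that the clones responded alike.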

How the data were processed

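RNA-seq libraries were analysed from deposited whole-number read counts per gene. Per the labels and the study's methods, the authors trimmed reads with Trimmomatic and used STAR with GRCh38 (Ensembl). The kit keeps no strand information, and the counting setting is not given in the sources used here. The table held 17788 genes, of which 17763 were named by GENCODE release 44, and 0 columns of sample values were unused.

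Following the study, counts were scaled by library size and fitted with voom (limma 3.58.1, R 4.3.3) as ~0 + condition over all 32 libraries (8 groups of 4). The low-count filter (edgeR 4.0.16, filterByExpr with at least 10 counts and a total of 15), which left 14865 genes, was chosen here. DEGs passed this two-sided limma-voom test at 0.05 after Benjamini-Hochberg adjustment, and adjusted p-values come from it unless another tool is named. CPM are counts per 1e6 counts of the library. Changes per series are differences of log2 CPM.

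Named genes were JUNB, all interaction calls, and members of the ligand, receptor, feedback, BMP, AP-1 and EMT factor lists that passed. Up to 4 passing members of other lists were added, and the 15 largest rises and falls (at least 5 CPM, same direction in 4 series). The 5 largest rises and 5 largest falls called without series 1-2 but not with all libraries were named too (at least 5 CPM, same direction in the series kept). Other genes were named after their values were seen. The values of 1 gene that met these rules are not reported here. Of the other 88 genes, 23 overlap another gene of the table. The comparison, members and lists were chosen with earlier results of these data known.

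Libraries of a series pair by clone and replication number of the labels, and their deviations from the group means correlated (0.101 to 0.245). Replicate libraries differed beyond sampling noise (chi-square over degrees of freedom 20.1 or more) and were kept as separate samples. Alternatives were TMM factors, edgeR, DESeq2 1.42.0, other filters, the compared groups alone, the series as a replicate block, and leaving out series 1-2 or each library. Scripts were tested on simulated data. Floors and errors cover counting and replicate spread only.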

Additional observations from a re-analysis of the deposited data

Results flagged for a closer look

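Outlying libraries were sought among the 4 solvent and the 4 treated libraries of each named gene. In 25 of 176 such groups 1 library lay far from the other 3 (Dixon's test at its 95% limit). Chance gives about 1 in 20 in independent groups that were not selected. The named genes were chosen on these same libraries, some because they passed only without series 1-2, so the counts are no test. Of the 25 outlying libraries 18 belonged to series 1-2, 3 to series 1-1, 1 to series 65-1 and 3 to series 65-2. In solvent, series 1-2 stood apart for LBH (2.92 CPM), PMEPA1 (136 CPM), SEMA7A (8.51 CPM), FERMT1 (121 CPM), INPP4B (36.5 CPM), SOX4 (49.2 CPM) and PLAU (177 CPM), each time above the other series. At 6 h it stood apart below them for PMEPA1 (188 CPM), DCLK1 (21.3 CPM), LTBP2 (256 CPM), ID3 (33.6 CPM), JUN (114 CPM), SNAI1 (1.18 CPM), COL4A1 (124 CPM) and ITGA5 (167 CPM), and above them for NRG2 (4.82 CPM), ADGRF1 (4.24 CPM) and SYBU (37.3 CPM). Other series stood apart in solvent for EHF (83.4 CPM) and KCNK2 (7.60 CPM) in 1-1, for COL1A1 (3.16 CPM), FST (2.53 CPM) and DUSP5 (39.9 CPM) in 65-2 and for CXCL2 (6.73 CPM) in 65-1, and at 6 h for MYBPC1 (1.47 CPM) in 1-1.

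The 6 h change differed between genotypes, by the interaction term of limma-voom, in 11 genes. The mut minus WT difference in log2 change was -0.97 for IVNS1ABP, -0.52 for IGF1R, -1.09 for FERMT1, -0.96 for INPP4B, -0.69 for SPDL1, -0.91 for SOX4, -0.74 for SGK1, -0.70 for BPGM, -0.74 for FAM83A, -0.86 for MOB3B and 0.57 for SLC29A3. Solvent libraries of series 1-2 stood above the other series for FERMT1, INPP4B and SOX4 among them. FAM83A and MOB3B overlap a gene on the opposite strand.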

How the results depend on the processing

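The number of DEGs varied widely with the processing. The named DEGs were chosen on these same libraries, and the largest changes also for moving the same way in every series. Their steady direction and the calls they kept are therefore no test. Of the 69 named DEGs, 63 were called with TMM factors, 67 without series 1-2, 69 with the replicate block, and 40 in all 8 fits that each left out 1 library. Against 1041 DEGs, edgeR gave 614, the compared groups alone 437, the fold change limit of 1 on the log2 scale gave 90, and the replicate block gave 2453, or 2425 without series 1-2. Leaving out 1 library gave 241 to 1873. The rises made up 66.4% of DEGs with edgeR and 64.7% with DESeq2. Against 11 interaction calls, edgeR gave 17, DESeq2 46, the compared groups alone 1, the fold change limit 1, and leaving out 1 library 1 to 8. The replicate block gave 46 calls, or 22 without series 1-2, and the fits without series 1-2 alone, with TMM factors in addition, or without WT series 27-2 as well each gave 1 (the last 2 chosen after seeing the data). The rise of JUNB was 1.11 to 1.75 when 1 library was left out. The change of FAM83A in mut cells, -0.05, turned to 0.00 with TMM factors, 0.02 without series 1-2 with or without the replicate block, 0.08 with TMM factors and without the series, and lay between -0.10 and 0.02 when 1 library was left out, with 0.02 without solvent 1-2. That of IVNS1ABP, 0.02, turned to -0.04 without 6 h 1-1, 6 h 65-1 or solvent 65-2. Neither gene passed in any of these. The causes of these differences were not tested. Changes within about 0.06 log2 of 0 take their direction from the scaling, and levels near 3 counts (0.0570 to 0.0724 CPM) are limited by depth.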
